A study of Mus musculus with 16 samples.

Results

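Histone genes were followed in olfactory cells of mice exposed to cigarette smoke odour or to filtered air. Genes were taken by their older symbols, those beginning Hist1h to Hist4h, H2af, H3f3 or H1f, with pseudogene symbols left out. By this rule 73 of the 19505 genes measured were histone genes, and 13 further annotated histone genes were not analysed here. The 73 were 53 replication-dependent genes of the histone clusters, 3 testis genes of the clusters, 9 somatic variants, 7 germline variants, and Hist2h2be, now named H2bc21, which was kept apart. The replication-dependent genes were 4 of H1, 12 of H2A, 15 of H2B, 10 of H3 and 12 of H4, and 44 of them lie on chromosome 13.

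All mice carried S100a5-tauGFP, which ties a fluorescent protein to S100a5, which olfactory sensory neurons express in step with recent activity and which encodes a calcium-binding protein. There were 24 mice of both sexes, 7 to 12 weeks old, kept singly in clean air for 40 h (3.1 L per min). After 26 h, 4 pools of 3 mice received 10 s of cigarette smoke odour every 20 min, and 4 pools of 3 mice received filtered air (vehicle) on the same schedule. Each pool's olfactory mucosa was dissociated and sorted into GFP+ and GFP- cells, which gave 4 arrays each of smoke GFP+, vehicle GFP+, smoke GFP- and vehicle GFP- cells, 16 in all. Values are log2 array signals as the authors deposited them, and a difference of 1 is a 2-fold difference on that scale. A gene was called where limma's p-value, after Benjamini-Hochberg adjustment across all 19505 genes, was at most 0.05.

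Nucleosomes hold DNA on a core of H2A, H2B, H3 and H4, with H1 on the linker. Replication-dependent histone genes are switched on in S phase, and their mRNAs end in a stem-loop instead of a poly(A) tail. Variant histones come mostly from polyadenylated mRNAs made throughout the cell cycle, and cells that no longer divide, such as mature neurons, draw on them to replace old histones. Hist2h2be encodes H2BE, an H2B variant of mouse olfactory sensory neurons whose expression is known to be lower in active neurons and which affects neuronal lifespan. Whether the labelling of RNA depended on poly(A) tails is not given in the sources used here, and its part in the histone signals was not tested.

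The start regions of 4 replication-dependent genes and 1 variant are shown because the 2 kinds of gene differed in the sort described next. Each window runs from 250 bases before to 50 bases after the annotated start (RefSeq, GRCm38.p6), 5′ to 3′ along the gene. Capitals mark 3 motifs, found on either strand. TATAAA binds the general transcription machinery. The CCAAT box is bound by NF-Y. The octamer ATTTGCAT is bound by Oct1. H2ac4 (an H2A gene, chr13:23750838-23751137 on the plus strand), H2bc12 (H2B, chr13:22035571-22035870 on the plus strand) and H3c6 (H3, chr13:23562336-23562635 on the minus strand) were lower in GFP+ cells. H2ac21 (H2A, chr3:96219635-96219934 on the plus strand) was not lower, and H3f3b (chr11:116024455-116024754 on the minus strand) encodes the replication-independent histone H3.3.
H2ac4: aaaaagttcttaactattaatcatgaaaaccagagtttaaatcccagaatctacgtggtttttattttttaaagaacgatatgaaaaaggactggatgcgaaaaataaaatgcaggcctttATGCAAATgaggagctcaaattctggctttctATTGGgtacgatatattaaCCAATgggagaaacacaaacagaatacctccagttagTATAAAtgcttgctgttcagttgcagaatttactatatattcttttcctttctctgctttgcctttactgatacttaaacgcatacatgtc
H2bc12: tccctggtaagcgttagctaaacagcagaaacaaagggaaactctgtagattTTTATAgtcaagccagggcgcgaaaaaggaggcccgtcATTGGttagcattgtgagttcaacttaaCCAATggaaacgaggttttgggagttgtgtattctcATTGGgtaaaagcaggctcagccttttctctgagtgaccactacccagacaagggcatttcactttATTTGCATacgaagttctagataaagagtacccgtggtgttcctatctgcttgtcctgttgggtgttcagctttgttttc
H3c6: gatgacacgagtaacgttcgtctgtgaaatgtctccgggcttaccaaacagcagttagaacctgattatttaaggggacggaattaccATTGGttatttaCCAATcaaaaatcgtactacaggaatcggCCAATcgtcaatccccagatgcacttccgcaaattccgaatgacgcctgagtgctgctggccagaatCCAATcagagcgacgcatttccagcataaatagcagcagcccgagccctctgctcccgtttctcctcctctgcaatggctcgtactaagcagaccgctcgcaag
H2ac21: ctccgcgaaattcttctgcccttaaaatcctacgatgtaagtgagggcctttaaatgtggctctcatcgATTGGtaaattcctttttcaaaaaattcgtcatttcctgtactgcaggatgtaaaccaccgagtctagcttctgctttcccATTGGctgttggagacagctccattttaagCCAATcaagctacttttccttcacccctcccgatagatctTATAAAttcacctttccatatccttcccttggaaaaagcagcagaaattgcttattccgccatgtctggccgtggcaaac
H3f3b: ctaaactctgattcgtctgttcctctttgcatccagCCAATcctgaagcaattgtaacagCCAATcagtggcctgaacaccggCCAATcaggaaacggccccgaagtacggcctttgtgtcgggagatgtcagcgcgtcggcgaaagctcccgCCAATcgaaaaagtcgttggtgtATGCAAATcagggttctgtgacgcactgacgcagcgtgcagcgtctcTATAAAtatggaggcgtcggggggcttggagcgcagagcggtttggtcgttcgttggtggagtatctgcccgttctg
The H2ac4 window held TATAAA 41 bases before the start and the octamer, on the other strand, 129 bases before it. H2ac21 held TATAAA 30 bases before its start and no octamer, and H3f3b held all 3 motifs.

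Windows were found for 66 of the 73 genes, with none for H2bc21. TATAAA stood in 27 of 49 replication-dependent windows (55.1%), against 13.6% of 32851 windows of the whole annotation. CCAAT stood in 41 of the 49 (83.7%), against 37.4%. Every window of H1, H2A, H2B and H3 genes held CCAAT, whereas 3 of 11 H4 windows did (27.3%). The octamer stood in 10 of the 49 (20.4%), 5 of them H2A and 5 H2B, against 1.74%. Of 8 somatic variant windows, 1 held TATAAA, 6 held CCAAT (75.0%) and 1 held the octamer. The TATAAA and the octamer were both in the window of H3f3b, so the variant window printed above was not typical of its class. Windows of neighbouring genes on opposite strands, such as H2ac12 and H2bc12, overlap, so the same bases can count for both genes. These matches describe the letters in each window only.

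Replication-dependent histone RNA was lower in GFP+ cells, the fraction enriched for recently active neurons, than in GFP- cells, under both exposures. S100a5 itself averaged 17.02 in GFP+ cells against 15.87 in GFP- cells of smoke mice, and 16.46 against 15.25 in vehicle mice. In smoke mice 42 of 53 were lower and 1 higher, where 14.4% of all genes were lower and 18.3% higher. The median was -1.22, with a range of -3.51 to 0.42, while the median of all genes was 0.15. In vehicle mice 48 of 53 replication-dependent genes were lower and 0 higher in GFP+ cells, where 15.4% of all genes were lower and 24.2% higher. Their median difference was -1.62, with a range of -4.45 to 0.20, while the median of all genes was 0.17. In 47 of the 53 every GFP+ array lay below every GFP- array, as in 15.1% of all genes, and 35 had a difference of -1 or lower, as had 9.57% of all genes. All 42 were among the 48 of vehicle mice (87.5% of those). Arrays were not paired by pool in these counts.

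H1f1 (Hist1h1a), a linker histone gene, stood furthest apart in vehicle mice. Its log2 signals were 6.94, 7.30, 6.60 and 7.01 in smoke GFP+ cells, 6.54, 6.54, 6.47 and 6.73 in vehicle GFP+ cells, 9.55, 10.42, 11.34 and 9.24 in smoke GFP- cells, and 11.05, 10.17, 11.55 and 11.33 in vehicle GFP- cells. No GFP+ array reached any GFP- array. The difference was -3.17 in smoke mice and -4.45 (SE 0.36, adjusted p = 5e-08) in vehicle mice, a 21.9-fold lower signal there. Its GFP+ signals lay close to the level of vomeronasal receptors, genes not used by these neurons, whose 95th percentile was 6.14 to 6.78 per array.

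H2ac4 (Hist1h2ab) had log2 signals of 11.24, 11.86, 11.89 and 11.69 in smoke GFP+ cells, against 13.96, 14.12, 14.60 and 13.47 in smoke GFP- cells. In vehicle mice it had 11.73, 11.72, 11.38 and 11.53 in GFP+ cells, against 14.26, 14.10, 14.60 and 14.31 in GFP- cells. The fractions were wide apart under both exposures. The differences were -2.37 (SE 0.20, adjusted p = 9.7e-08) in smoke mice and -2.73 (SE 0.20, adjusted p = 1.5e-08) in vehicle mice.

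H2ac15 (Hist1h2ak) had log2 signals of 10.74, 10.74, 11.85 and 11.51 in smoke GFP+ cells, against 14.48, 15.12, 15.50 and 13.79 in smoke GFP- cells. It was the gene with the lowest difference in smoke mice, -3.51 (SE 0.33, adjusted p = 2.8e-07), and had -3.73 in vehicle mice. H2ac10 and H2ac8, also H2A genes, differed by -2.85 and -2.97 in smoke mice, and H2ac10 by -3.24 (SE 0.26, adjusted p = 4.8e-08) in vehicle mice. Of 12 H2A genes, 10 were lower in smoke mice, with a median of -1.81, and 10 in vehicle mice, with a median of -2.01.

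H3c6 (Hist1h3e) had log2 signals of 11.44, 11.26, 11.96 and 11.65 in smoke GFP+ cells, against 13.77, 14.09, 14.59 and 13.54 in smoke GFP- cells. The differences of this H3 gene were -2.42 (SE 0.24, adjusted p = 6.4e-07) in smoke mice and -2.93 (SE 0.24, adjusted p = 5.6e-08) in vehicle mice. H3 genes were lower for 9 of 10 under both exposures, with medians of -1.83 in smoke mice and -2.04 in vehicle mice. The probe sets of H3c14 and H3c15 gave identical values on every array and those of H3c13 came within 0.12 of both, so these 3 near-identical genes are not separate measurements. H2ac11 and H2ac13 stayed within 0.243 on every array, and H2bc11 and H2bc12 within 0.323. So did H4c12 and H3f3a, of different families, within 0.247. Whether other cluster genes are separate measurements was not tested.

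H2bc12 (Hist1h2bk) differed by -1.50 (SE 0.16, adjusted p = 1.2e-06) in smoke mice and -1.80 (SE 0.16, adjusted p = 1.1e-07) in vehicle mice. H2B genes were lower for 11 of 15 in smoke mice, with a median of -1.21, and for 13 of 15 in vehicle mice, with a median of -1.73. Of 4 H1 genes, 3 were lower in smoke mice and 4 in vehicle mice. H1f5, at the vomeronasal level in GFP+ cells, was lower there by at least 1.62 on the log2 scale in smoke mice and at least 2.41 in vehicle mice. H4 genes had the family medians closest to 0, -0.61 with 9 of 12 lower in smoke mice and -0.83 with 12 of 12 lower in vehicle mice. The difference between families was not tested.

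**Figure D1:**
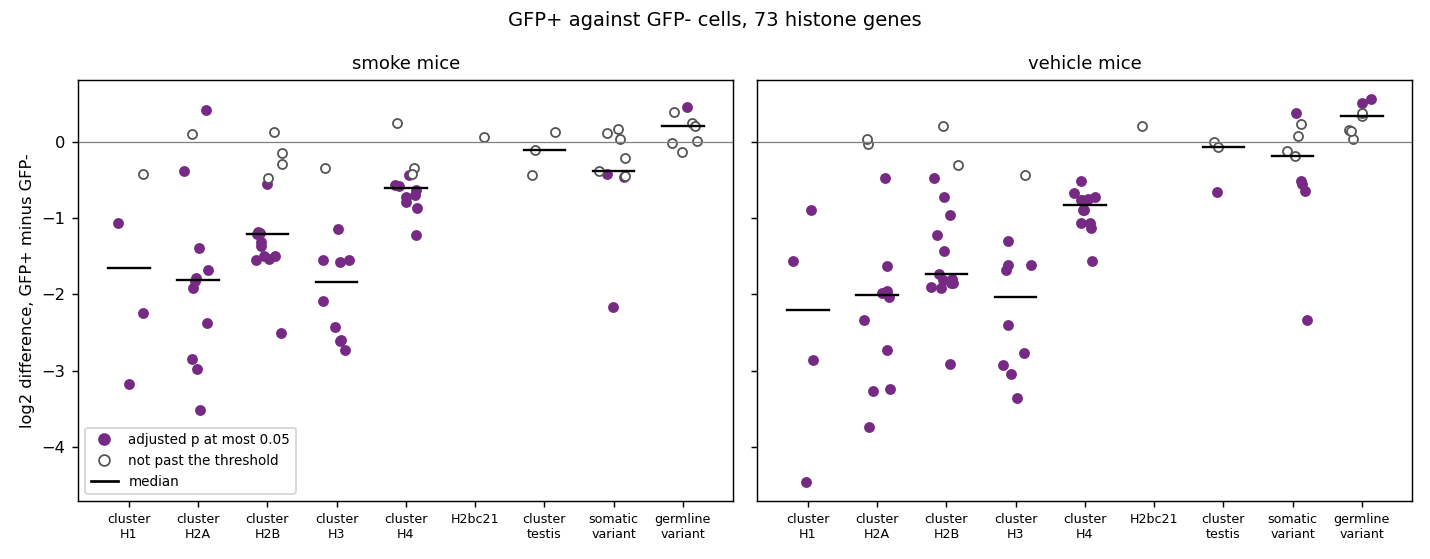
Log2 difference between GFP+ and GFP- cells (vertical axis) for each of the 73 histone genes, by class (horizontal axis), in smoke mice (left) and vehicle mice (right). Filled points passed an adjusted p of 0.05, open points did not, and lines are class medians. Replication-dependent genes of H1, H2A, H2B and H3 reach down to -3.51 in smoke mice and -4.45 in vehicle mice, while H4 genes stay nearer 0.

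Not every cluster gene was lower in GFP+ cells. H2ac21, H2ac6, H2bc4, H2bu2 and H3c1 did not pass in vehicle mice, and H2bu2 and H3c1 were at the vomeronasal level in every group. H2bc4 (Hist1h2bc) had a difference of 0.13 in smoke mice and 0.20 in vehicle mice (adjusted p = 0.38 and 0.167). H2ac21 (Hist2h2ab) had log2 signals of 10.25, 9.95, 10.26 and 10.32 in smoke GFP+ cells, against 9.80, 9.55, 9.83 and 9.93 in smoke GFP- cells. It was higher in GFP+ cells of smoke mice, by 0.42 (SE 0.13, adjusted p = 0.022). That call was lost without smoke GFP+ replicate 1, 3 or 4 or without smoke GFP- replicate 2, with adjusted p-values of up to 0.0755.

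Many cluster genes lie in divergent H2A and H2B pairs that share a start region. Among the 66 genes with a window were 8 such pairs, with starts 164 to 281 bases apart. H2bc4 and H2bc21 had no window, so pairs that include them were not counted. Neither of these genes was lower in GFP+ cells. In 7 of the 8 pairs counted, both genes were lower in GFP+ cells of vehicle mice. Of all replication-dependent genes, 48 of 53 were lower there, and of all genes 15.4%. In smoke mice H2ac24 was lower and its partner H4bc24 did not pass. The pair partners differed from each other by a median of 0.84 in the vehicle log2 difference, from 0.05 for H2ac11 and H2bc11 to 1.83 for H2ac15 and H2bc15. The pair outside those 7 in vehicle mice was H2bc1 and H2ac1, both testis genes. H2bc1 was at the vomeronasal level, and H2ac1 differed by -0.44 (adjusted p = 0.058) in smoke mice and was lower in GFP+ cells of vehicle mice, with -0.66 (adjusted p = 0.0054). With each array centred on its own median, the vehicle value of H2ac1 was -0.32 and did not pass (adjusted p = 0.0933). In smoke mice H2ac1 passed with arrays shifted by the median gene difference (-0.55, adjusted p = 0.0278), with the dim filter (adjusted p = 0.0444) and without smoke GFP- replicate 4 (-0.58, adjusted p = 0.0128).

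Somatic variants were mixed in the sort. Of 9, 3 were lower and 0 higher in GFP+ cells of smoke mice, and 4 were lower and 1 higher in vehicle mice. Of all genes, 14.4% were lower and 18.3% higher in smoke mice, and 15.4% lower and 24.2% higher in vehicle mice. H2ax, whose product is phosphorylated at DNA breaks and whose gene also gives a stem-loop mRNA, had the lowest difference. Its log2 signals were 11.58, 11.19, 11.79 and 11.21 in smoke GFP+ cells, 11.71, 11.72, 11.72 and 11.63 in vehicle GFP+ cells, 13.14, 13.62, 14.36 and 13.29 in smoke GFP- cells, and 13.75, 13.69, 14.23 and 14.48 in vehicle GFP- cells. The fractions did not overlap, and the differences were -2.16 (SE 0.24, adjusted p = 1.7e-06) in smoke mice and -2.34 (SE 0.24, adjusted p = 5.5e-07) in vehicle mice.

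The genes of H3.3, the variant placed in chromatin without replication, behaved unequally. H3f3a was lower in GFP+ cells, with -0.46 (SE 0.12, adjusted p = 0.0098) in smoke mice and -0.65 (SE 0.12, adjusted p = 0.00053) in vehicle mice. H3f3b averaged 16.70 ± 0.04 in smoke GFP+ cells and 16.60 ± 0.04 in smoke GFP- cells, and 16.68 ± 0.05 in vehicle GFP+ cells and 16.61 ± 0.09 in vehicle GFP- cells (SD, n = 4 each). Its differences were 0.11 (interval -0.08 to 0.29) in smoke mice and 0.07 (interval -0.11 to 0.25) in vehicle mice, at 95% confidence, and neither passed. When each array was centred on its own median, a scaling under which most genes were higher in GFP+ cells, H3f3b was higher by 0.43 (adjusted p = 0.000855) in smoke mice and 0.42 (adjusted p = 0.000841) in vehicle mice. All its signals lay above 16, the log2 of the largest reading of a 16-bit scanner. Deposited values reached 18.6, so they were not cut off there. Whether differences at this height are compressed was not tested.

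H2A.Z is a variant found at promoters. H2az1 was lower in GFP+ cells with -0.42 (adjusted p = 0.024) in smoke mice and -0.52 (adjusted p = 0.0056) in vehicle mice. H2az2 differed by -0.38 (adjusted p = 0.106) in smoke mice and was lower at -0.55 (adjusted p = 0.019) in vehicle mice. With the pool as a replicate block, H2az2 passed in smoke mice too (adjusted p = 0.0336). The H2az1 and H2az2 calls, and that of H3f3a in smoke mice, were lost when each array was centred on its own median, with adjusted p-values of 0.488 and 0.213 for H2az1, 0.269 for H2az2 in vehicle mice and 0.296 for H3f3a. H2az1 in smoke mice also missed the threshold without smoke GFP+ replicate 1 or smoke GFP- replicate 2 or 3 (adjusted p up to 0.0796). H2az2 in vehicle mice did so without vehicle GFP+ replicate 2 or vehicle GFP- replicate 4 (adjusted p up to 0.0725).

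MacroH2A variants carry a large extra domain and are linked to silent chromatin. Macroh2a2 differed by 0.04 (adjusted p = 0.81) in smoke mice. It was higher in GFP+ cells of vehicle mice, at 13.50, 13.54, 13.87 and 13.58 against 13.21, 13.43, 13.15 and 13.19 in GFP- cells. The difference was 0.38 (SE 0.11, adjusted p = 0.014). It was not past the threshold without vehicle GFP+ replicate 3 (adjusted p = 0.0555). Macroh2a1 differed by 0.16 and 0.23, H2aj by -0.21 and -0.19 and the linker variant H1f10 by -0.45 and -0.12 in smoke and vehicle mice, and none of these passed. H1f10 passed in smoke mice in 4 alternatives, at -0.45 to -0.58 (adjusted p up to 0.046): arrays shifted by the median gene difference, the filter on dim probe sets, and without smoke GFP+ replicate 1 or smoke GFP- replicate 2. Macroh2a1 passed with own-median centring in smoke mice (0.48, adjusted p = 0.00102) and vehicle mice (0.58, adjusted p = 0.000193), and with a variance trend in vehicle mice (adjusted p = 0.0373). Macroh2a2 passed in smoke mice with that centring (0.36, adjusted p = 0.0117). Of 7 germline variants, 4 were at the vomeronasal level in every group. In smoke mice the 1 germline gene called was H1f8, which lay at the vomeronasal level in both fractions. There 18.3% of all genes were higher and 14.4% lower. Macroh2a3 (0.56, adjusted p = 0.019) and H2al2a (0.50, adjusted p = 0.044) were higher in GFP+ cells of vehicle mice, and 0 were lower. These 2 of 7 lay near the 24.2% of all genes that were higher there, where 15.4% were lower. Macroh2a3, annotated as a transcribed pseudogene, did not pass without vehicle GFP- replicate 1 or vehicle GFP+ replicate 3 (adjusted p up to 0.0679). H2al2a lost its call when any of 8 arrays was left out (adjusted p up to 0.124).

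**Figure D2:**
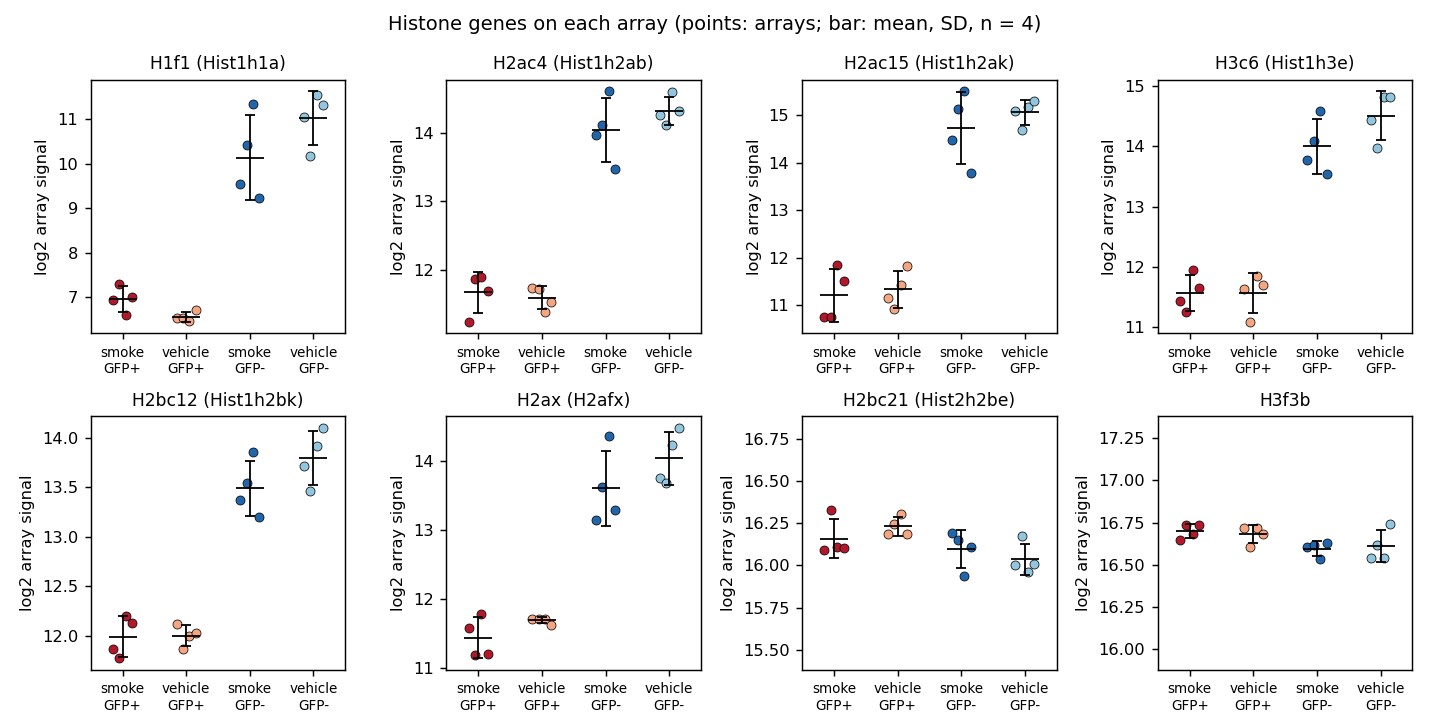
Log2 array signal (vertical axes, each panel on its own scale) of 8 histone genes on each array, in smoke GFP+, vehicle GFP+, smoke GFP- and vehicle GFP- cells. Points are arrays, and bars give the mean and SD of 4. H1f1, H2ac4, H2ac15, H3c6, H2bc12 and H2ax are lower on every GFP+ array than on every GFP- array, while H2bc21 and H3f3b span under 1 log2 unit over all 16 arrays.

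H2bc21 (Hist2h2be), on chromosome 3 and a cluster gene by position, did not pass any comparison. Its log2 signals were 16.09, 16.33, 16.11 and 16.11 in smoke GFP+ cells, 16.18, 16.25, 16.31 and 16.19 in vehicle GFP+ cells, 16.19, 16.15, 15.94 and 16.11 in smoke GFP- cells, and 16.003, 16.17, 15.96 and 16.01 in vehicle GFP- cells. All lay near or above 16, on a scale that reached 18.6. Whether differences of this gene are compressed was not tested. Smoke GFP+ cells differed from vehicle GFP+ cells by -0.07 (95% interval -0.28 to 0.13, adjusted p = 0.999, exact permutation p = 0.3429). Smoke GFP- cells differed from vehicle GFP- cells by 0.06 (95% interval -0.15 to 0.27, adjusted p = 0.964, exact permutation p = 0.4571). These 2 smoke effects differed from each other by -0.13 (95% interval -0.43 to 0.16, adjusted p = 0.94, exact permutation p = 0.1429).

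In smoke mice H2bc21 differed between GFP+ and GFP- cells by 0.06 (95% interval -0.14 to 0.27, adjusted p = 0.652), with 2 of 4 pools higher in GFP+ cells. In vehicle mice the GFP+ arrays all lay above the GFP- arrays, as for 23.8% of all genes, by 0.20 on average (SE 0.10, adjusted p = 0.123). It was higher in GFP+ cells in 4 of 4 vehicle pools, and the exact permutation p, swapping fractions within pools, was 0.125, the smallest that 4 pools can give. When each array was centred on its own median, H2bc21 was higher in GFP+ cells under both exposures, by 0.38 (adjusted p = 0.0043) in smoke mice and 0.54 (adjusted p = 0.0003) in vehicle mice. That centring called 62.4% of all genes higher in smoke mice and 65.7% in vehicle mice, so it shared this call with most genes.

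Smoke exposure changed 0 histone genes past the threshold within GFP+ cells, where 0.108% of all genes passed. Of the 73, 1 had an unadjusted p under 0.05, as had 4.8% of all genes. That gene was H2ac21, at 10.25, 9.95, 10.26 and 10.32 in smoke GFP+ cells, against 9.78, 9.49, 9.85 and 9.89 in vehicle GFP+ cells. The groups did not overlap, as for 1.66% of all genes in that direction, and the difference was 0.44 (SE 0.13, adjusted p = 0.59, exact permutation p = 0.0286, the smallest that 4 against 4 arrays can give). The replication-dependent median was 0.04, with 21 of 53 genes below 0, against 51.1% of all genes. Among replication-dependent genes the next smallest p was that of H1f2, a linker histone gene, with 0.25 (adjusted p = 0.999). The 9 somatic variants lay between -0.25 for H2ax and 0.07 for H3f3a.

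Within GFP- cells smoke exposure also changed 0 of the 73 past the threshold, where 0.128% of all genes passed. Below 0 were 51 of 53 replication-dependent genes, against 47.6% of all genes, and their median difference was -0.27, against 0.01 for all genes. Family medians were -0.49 for H1, -0.27 for H2A, -0.30 for H2B, -0.38 for H3 and -0.18 for H4. An unadjusted p under 0.05 was found for 6 of the 53, for 7 of the 73, and for 5.72% of all genes. H4f16 (Hist4h4), on chromosome 6, had log2 signals of 7.61, 7.40, 7.38 and 7.67 in smoke GFP- cells, against 8.05, 7.75, 8.32 and 8.26 in vehicle GFP- cells. It was the only replication-dependent gene whose groups did not overlap, as for 1.3% of all genes in that direction, with a difference of -0.58 (SE 0.18, adjusted p = 0.525). H1f1 differed by -0.89 (SE 0.36, adjusted p = 0.822). Among the variants, Macroh2a2 differed by 0.38 (SE 0.11, adjusted p = 0.532) and H2ax by -0.43 (adjusted p = 0.88).

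The shift of the replication-dependent genes in GFP- cells varied with single arrays. Their mean log2 signals were 12.49, 12.77, 13.14 and 12.30 in smoke GFP- cells, against 12.93, 12.62, 13.10 and 13.22 in vehicle GFP- cells, so the groups overlapped. The median difference was -0.46 without smoke GFP- replicate 3, -0.12 without smoke GFP- replicate 4 and -0.17 without vehicle GFP- replicate 4. Smoke pools 2 and 4, in which markers of sustentacular supporting cells averaged 11.77 and 12.08 in GFP+ cells, against at most 11.45 in vehicle GFP+ cells, were also left out together. The median was then -0.11. On the same arrays 22 measured genes of S phase and the cell cycle averaged 8.68, 9.47, 10.10 and 8.83 in smoke GFP- cells, against 9.52, 9.13, 9.61 and 9.62 in vehicle GFP- cells. Of these 22, 20 lay below 0 and 0 were called, with a median of -0.15. Markers of several other cells lay below 0 in the same comparison, with 0 called. They were 8 of 8 immune markers (median -0.30), 3 of 3 B lymphocyte markers (median -0.73), 5 of 5 endothelial and stromal markers (median -0.38), 4 of 5 markers of proliferating cells (median -0.31) and the red blood cell gene Alas2 (-0.65), with 4 of 4 horizontal basal cell markers (median -0.17). In both GFP- groups 3 of the 4 horizontal basal and 2 of the 5 endothelial and stromal markers were at the vomeronasal level. Below 0 were also 3 of 6 sustentacular, 2 of 4 globose basal, 3 of 6 immature neuron, 1 of 10 mature neuron and 0 of 3 ensheathing glia markers. Immune markers averaged 12.70 to 13.95 in smoke GFP- cells and 13.18 to 14.11 in vehicle GFP- cells, which overlapped. Endothelial and stromal markers averaged 6.55 to 6.92 in smoke GFP- cells and 7.01 to 7.38 in vehicle GFP- cells, which did not. The part of cell makeup in the histone shift was not tested.

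**Figure D3:**
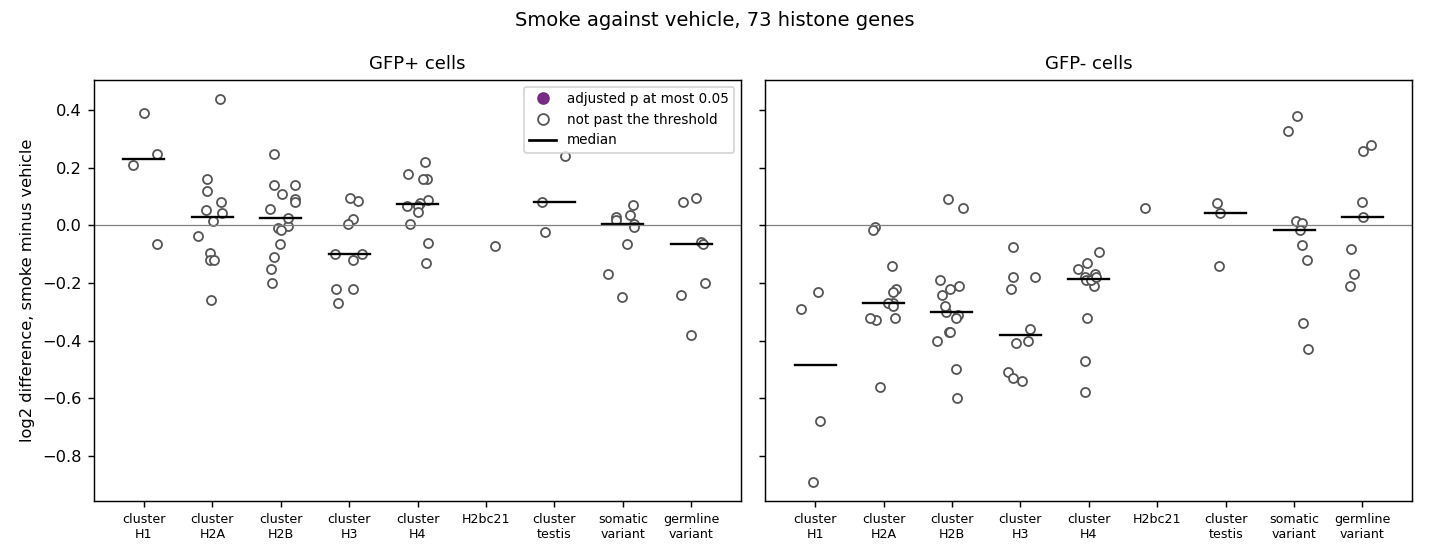
Log2 difference between smoke and vehicle arrays (vertical axis) for each of the 73 histone genes, by class (horizontal axis), in GFP+ cells (left) and GFP- cells (right). No point is filled, since none passed an adjusted p of 0.05, and lines are class medians. In GFP- cells 51 of 53 replication-dependent genes lie below 0, against 21 of 53 in GFP+ cells.

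The smoke effect in GFP+ cells minus that in GFP- cells was below 0 for 1 of 53 replication-dependent genes, against 51.7% of all genes, with a median of 0.31. By limma 0 of the 73 histone genes were called, where 0.174% of all genes were, and 5 had an unadjusted p under 0.05, as had 5.71% of all genes. This difference uses the same GFP- arrays as the comparison above. The smallest p-values among replication-dependent genes were those of H4f16 (0.76, adjusted p = 0.679) and H1f1 (1.28, adjusted p = 0.833). For somatic variants it lay between -0.34 for Macroh2a2 and 0.20 for H3f3a. Within pools, the replication-dependent median of GFP+ minus GFP- signals was -1.16, -1.40, -1.69 and -0.77 in smoke pools, against -1.60, -1.33, -1.68 and -1.80 in vehicle pools.

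Cell cycle genes were lower in the same fraction as the replication-dependent histones. The 22 S-phase and cell cycle genes averaged 7.08 to 7.19 in smoke GFP+ cells and 6.98 to 7.06 in vehicle GFP+ cells, against 8.68 to 10.10 in smoke GFP- cells and 9.13 to 9.62 in vehicle GFP- cells. Of the 22, 20 were lower in GFP+ cells of smoke mice (median -2.12) and 21 of vehicle mice (median -2.60). At the vomeronasal level in GFP+ cells were 11. Lower over all genes were 14.4% in smoke mice and 15.4% in vehicle mice. Mcm6, a subunit of the replicative helicase, differed by -2.57 (SE 0.19, adjusted p = 1.3e-08) in vehicle mice. All 5 measured markers of proliferating cells were lower in GFP+ cells under both exposures, 5 of them at the vomeronasal level in smoke GFP+ cells and 4 in vehicle GFP+ cells.

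Markers of some other cells moved with the same sort. The shares over all genes were 14.4% lower and 18.3% higher in smoke mice, and 15.4% lower and 24.2% higher in vehicle mice. Immune markers averaged 8.20 to 8.65 in smoke GFP+ cells and 8.18 to 8.94 in vehicle GFP+ cells, against 12.70 to 13.95 and 13.18 to 14.11 in the GFP- cells of those exposures, with 7 of 8 and 8 of 8 lower. All 3 measured B lymphocyte markers were at the vomeronasal level in GFP+ cells, with list means of 5.25 to 6.14, against 10.33 to 12.07 in GFP- cells. Globose basal cells are the dividing neuronal precursors. Of their 4 measured markers, 3 were lower in GFP+ cells under both exposures. Lgr5 was not called, at 0.02 in smoke and -0.11 in vehicle mice. Kit averaged 6.05 and 6.13 in GFP+ cells, against 9.46 and 9.43 in GFP- cells of smoke and vehicle mice. In GFP+ cells 3 of the 4 markers, Kit included, were at the vomeronasal level. Of 6 markers of immature neurons, 3 (Gap43, Gng8 and Stmn1) were lower in GFP+ cells under both exposures. In vehicle mice 2 of the 6 were higher in GFP+ cells, Dcx by 0.51 (adjusted p = 0.0034) and Ncam1 by 0.39 (adjusted p = 0.039), and in smoke mice 0 were higher. The mean of 10 mature neuron markers was 16.20 to 16.30 on GFP+ arrays and 15.92 to 16.14 on GFP- arrays. Other lists were less uniform. In smoke mice 1 of 6 sustentacular and 1 of 5 endothelial and stromal markers were lower in GFP+ cells. In vehicle mice these were 4 and 2. Under both exposures 1 of 4 horizontal basal and 1 of 3 ensheathing glia markers were lower, as was Alas2. None of these lists had a gene called higher. In sorted bulk samples fewer cells of a type and less RNA per cell cannot be told apart, and the part of each cell type in the histone signals was not tested.

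**Figure D4:**
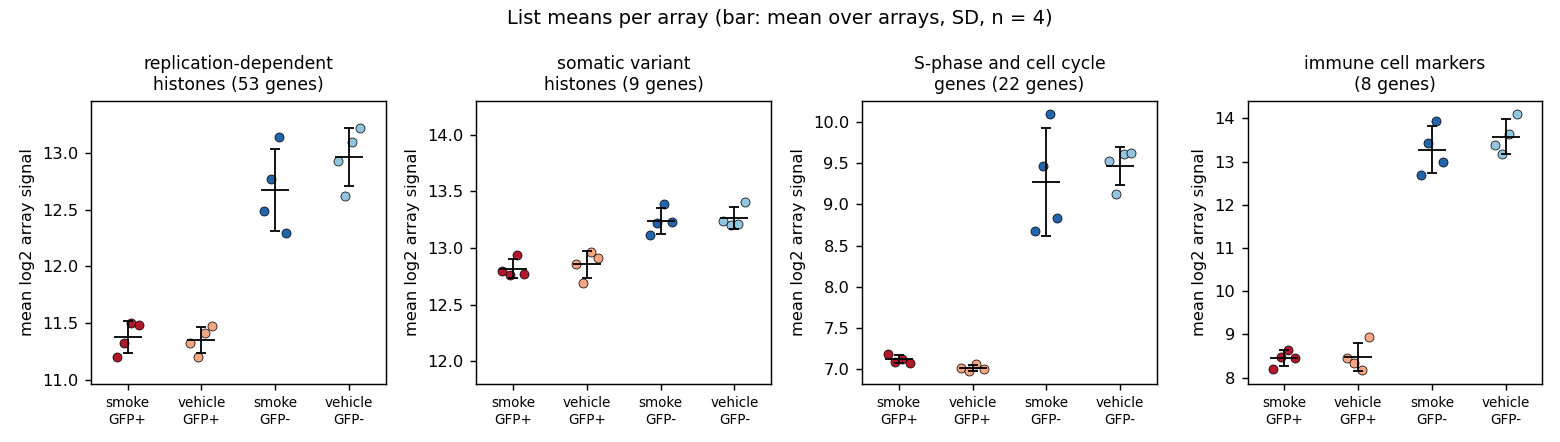
Mean log2 array signal (vertical axes, each panel on its own scale) of 53 replication-dependent histone genes, 9 somatic variants, 22 S-phase and cell cycle genes and 8 immune markers, on each array of the smoke GFP+, vehicle GFP+, smoke GFP- and vehicle GFP- groups. Points are arrays, and bars give the mean and SD of 4. Replication-dependent histones sit at 11.20 to 11.50 on GFP+ arrays and 12.30 to 13.22 on GFP- arrays.

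Of 14 measured genes of histone transcription and mRNA processing, 2 were higher and 5 lower in GFP+ cells of smoke mice, and 4 were higher and 3 lower in vehicle mice. The shares over all genes were 18.3% higher and 14.4% lower in smoke mice, and 24.2% higher and 15.4% lower in vehicle mice, so the vehicle counts lay near the background. Zfp473, a zinc finger protein of the histone pre-mRNA processing complex, was higher in GFP+ cells by 0.47 (adjusted p = 0.019) in smoke mice and 0.63 (adjusted p = 0.0023) in vehicle mice. Hinfp, which activates H4 genes, was higher by 0.59 (adjusted p = 0.00062) in vehicle mice and differed by 0.25 (adjusted p = 0.1) in smoke mice. Smoke GFP+ cells differed from vehicle GFP+ cells by -0.41 for Hinfp (adjusted p = 0.524), the smallest p-value of these 14 genes in that comparison. E2f2, an S-phase transcription factor, averaged 6.0 in GFP+ cells against 11.43 in GFP- cells of smoke mice, and 5.99 against 11.86 in vehicle mice. Its GFP+ means were at the vomeronasal level, which limits how far the size of this difference can be measured.

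Of 5 chaperones that deliver histones to replicating DNA, 3 were lower in GFP+ cells under both exposures. Asf1b, a carrier of H3 and H4 in dividing cells, differed by -2.89 (SE 0.32, adjusted p = 2.4e-06) in smoke mice and -3.39 (SE 0.32, adjusted p = 3e-07) in vehicle mice. Nasp, another H3 and H4 chaperone, differed by -0.43 (adjusted p = 0.049) and -0.60 (adjusted p = 0.0065). Of 12 measured genes that place variants without replication, 0 were called in smoke mice and 1 was higher in vehicle mice. It was Ruvbl2, a subunit of the H2A.Z-depositing complexes, at 0.53 (adjusted p = 0.0062). Of all genes, 18.3% were higher and 14.4% lower in smoke mice, and 24.2% higher and 15.4% lower in vehicle mice. These 12 genes were thus called less often than genes at large. No gene of these lists was called for smoke exposure within GFP+ cells or within GFP- cells.

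Scaling moved the split of sort calls. GFP+ arrays had median signals of 7.87 to 7.96, against 8.19 to 8.29 for GFP- arrays. Centring each array on its own median gave an all-gene median of 0.51 in vehicle mice, in place of 0.17. Calls among the 73 histone genes were 2 higher and 45 lower in smoke mice and 3 higher and 53 lower in vehicle mice. With that centring they were 12 higher and 37 lower in smoke mice, where 62.4% of all genes were higher and 10.7% lower. In vehicle mice they were 14 higher and 46 lower, where 65.7% of all genes were higher and 11.6% lower. The replication-dependent median stayed below 0 at -1.28 in vehicle mice.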

How the data were processed

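RNA from 16 sorted samples had been hybridised to Clariom S mouse arrays, from 50 to 100 ng of total RNA per the labels' protocols. The authors deposited log2 values per probe set; Affymetrix Expression Console is named per the submitters' processing notes, and for its version and algorithm, none is given in the sources used here. Sorted values of any array pair differed by at most 0.346, so the authors had normalized across arrays. The series text also names bourgeonal; every label names cigarette smoke, and the labels were followed.

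Of 28846 probe sets, 19572 carried a gene symbol. The probe set with the highest mean stood for each of 19505 genes. Older histone symbols were matched through gene IDs and synonyms of RefSeq (GRCm38.p6): 10 histone genes matched by current symbol and 73 in all. All 5 comparisons were fitted on all 16 arrays with 4 group means (limma 3.58.1, R 4.3.3, two-sided), and permutation tests of single genes were exact. Arrays are pools of mice, so p-values measure the spread between pools, and array number limits precision. A gene was at the vomeronasal level where its mean in a group was no higher than the group's mean 95th percentile over 321 vomeronasal receptor genes; a bound is the other group's distance from that level. By this level, 65 of 73 histone genes exceeded it on at least 4 arrays. Both fractions of a pool came from the same mice, per the labels, and their residuals correlated with r of 0.091 to 0.22 in smoke pools and 0.045 to 0.214 in vehicle pools. Same-numbered smoke and vehicle arrays, from different mice, had r of 0.077 to 0.198 for GFP+ cells and -0.084 to 0.177 for GFP- cells. Correlations between arrays of a group were 0.988 to 0.995.

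The histone genes, lists and tests were chosen with earlier results of these data known. Named were Hist2h2be, all somatic variants and, per comparison and class, the 6 genes with the smallest p in each direction among those called, or else the 2 with the smallest p, and 3 genes of each other list; other named genes were chosen after their values were seen. The fit was tested on simulated data. Alternatives were quantile normalization, a replicate block, fewer arrays in the fit, a variance trend, a filter on dim probe sets, the mean over probe sets, leaving out smoke pools 2 and 4 or each array, and 2 scalings added after seeing the data. Figures used Python 3.11.15 and matplotlib 3.10.9.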

Additional observations from a re-analysis of the deposited data

Results flagged for a closer look

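Among 108 combinations of a named histone gene and a group of 4 arrays, 4 had an array far from the other 3 by Dixon's criterion for a gap, where chance gives about 1 in 20. H2bc21 was high on smoke GFP+ replicate 2, at 16.33 against 16.09 to 16.11 on the others. H2ac1 was low on smoke GFP- replicate 4, at 9.03 against 9.57 to 9.62. H2ax was low on vehicle GFP+ replicate 4, at 11.63 against 11.71 to 11.72. H1f6, at the vomeronasal level, was high on vehicle GFP+ replicate 4, at 5.72 against 5.35 to 5.39. Without smoke GFP- replicate 4, H2ac1 passed in the sort of smoke mice (-0.58, adjusted p = 0.0128).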

How the results depend on the processing

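With the replicate block, 50 histone genes were called between GFP+ and GFP- cells of smoke mice (the smoke sort) and 56 in vehicle mice (the vehicle sort), and 0 for smoke exposure in GFP+ cells, in GFP- cells or between them; beyond H2az2 it changed no call of a named gene. Leaving out each array in turn left 44 to 48 calls in the smoke sort, 52 to 56 in the vehicle sort and 0 for the 3 smoke comparisons. Without smoke pools 2 and 4, 39 were called in the smoke sort. H2bc21 passed in the smoke sort with arrays centred on their own median (0.383, adjusted p = 0.0043), and in the vehicle sort with that centring (0.539, adjusted p = 0.0003) and with a variance trend (0.195, adjusted p = 0.0328). The replication-dependent median in the vehicle sort was -1.277 with that centring and -1.752 with arrays shifted by the median gene difference. The median of the 16 variants in the smoke sort was -0.005, and became 0.317 with own-median centring, -0.112 with the median gene shift and -0.175 with the dim filter, with -0.08 to 0.056 when single arrays were left out. In the vehicle sort it was 0.108, and 0.452 with that centring. With the median gene shift, H2ac21 (0.309, adjusted p = 0.0995) and H1f8 (0.349, adjusted p = 0.074) in the smoke sort and Macroh2a2 (0.247, adjusted p = 0.0974), Macroh2a3 (0.427, adjusted p = 0.0761) and H2al2a (0.365, adjusted p = 0.147) in the vehicle sort did not pass, while H1f10 and H2ac1 passed in the smoke sort. H2al2a also did not pass with a variance trend (adjusted p = 0.0523) or without smoke pools 2 and 4 (adjusted p = 0.0709). Own-median centring ended 5 calls of named genes and gave 5. H3f3a (adjusted p = 0.138), H2az1 (0.171) and H2ac21 (0.11) did not pass in the smoke sort without smoke pools 2 and 4, where fewer arrays entered. H1f8, called in the smoke sort (adjusted p = 0.018) but at the vomeronasal level in both groups, lost its call in 5 settings. No result reversed its direction past the threshold. Of 468 values for counts, medians and H2bc21 under alternatives, 457 kept their call, their count within 1.5 times, or a median within 1 SD between arrays or pools; that SD is wide, since it covers smoke medians in GFP- cells of -0.456 to -0.112 around -0.274. Medians changed sign or reached 0 in 21 of 220 cases, over 6 of 10 medians, among them the replication-dependent smoke median in GFP+ cells (0.043, down to -0.022). For named genes 1974 of 2027 kept their call. Some alternatives in these totals could not move a value. No histone gene had several probe sets, and a median ignores arrays outside its comparison. The totals thus overstate how far the results were put to the test. The cause of these changes was not tested. Signals at the vomeronasal level limit what can be measured, and whether those above 16 do so was not tested.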
